A study of Mus musculus with 12 samples.

Results

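The genes of de novo lipogenesis (the making of new fatty acids from acetyl-CoA) were followed in sorted thymic epithelial cells: the regulators Srebf1 and Mlxipl, the substrate enzymes Acly, Acss2 and Me1, the carboxylases Acaca and Acacb, the small carboxylase-binding genes Mid1ip1 and Thrsp, and the synthase Fasn. They were taken by name, with earlier results of these data known. They make up 10 of the 31332 genes in the count table, and all 10 were among the 17268 that passed the filter on low counts.

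The study counted RNA from cortical (cTEC) and medullary (mTEC) thymic epithelial cells of C57BL6/J mice aged 2 months, in 4 groups of 3 libraries. All 12 libraries came from mice with floxed alleles of both liver X receptors, LXRalpha (Nr1h3) and LXR beta (Nr1h2). Control mTEC (libraries 1 to 3) and control cTEC (7 to 9) carried those alleles alone, and Cre mTEC (4 to 6) and Cre cTEC (10 to 12) also carried FoxN1-Cre, a recombinase driven from a gene of thymic epithelium. The comparisons address how each cell type responds once Cre acts on the floxed receptor genes; no group with Cre but without the floxed alleles was analysed here, so effects of Cre itself and of losing the receptors cannot be told apart.

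LXRs are nuclear receptors that bind oxysterols, pair with RXR and act on repeated DNA half-sites; in liver, Srebf1 is one of their best known targets. Srebf1 encodes a membrane-bound precursor that is cut in the Golgi to release a transcription factor for the lipogenic enzymes. Citrate lyase and acetyl-CoA synthetase supply acetyl-CoA, carboxylase turns it into malonyl-CoA, and the synthase builds palmitate with NADPH that malic enzyme helps to supply.

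Total counts ran from 4804697 to 11159013, so 1 count was worth between 0.0896 and 0.208 CPM, counts relative to the scaled library total. The counts were made over whole genes, so they check a floxed allele only in part: Nr1h2 lay between 157 and 191 CPM in control cTEC and between 102 and 123 CPM in Cre cTEC (-0.58 on the log2 scale, SE 0.13, edgeR adjusted p = 0.00566), and between 109 and 131 CPM in control mTEC and 70.2 and 95.7 CPM in Cre mTEC (-0.63, SE 0.13, adjusted p = 0.0158, not past 0.05 in 3 of the 6 fits that leave out 1 mTEC library, up to 0.131). Nr1h3 did not pass in either cell type, at means between 6.28 and 8.34 CPM. Foxn1, named after its values were seen, had a mean of 317 CPM in control and 111 CPM in Cre cTEC (73.1 to 164). In the mTEC groups its means were 254 and 82.3 CPM, the Cre libraries running from 33.9 to 155 CPM. Its log2 fold changes were -1.53 (SE 0.36) in cTEC and -1.63 (SE 0.36) in mTEC (edgeR adjusted p = 0.00851 and 0.0216). The alternative fits were not applied to Foxn1. The sort matched its labels: the summed level of 7 cTEC markers ran from 5036 to 14368 CPM in the cTEC libraries and from 641 to 924 CPM in the mTEC libraries, and that of 7 mTEC markers from 866 to 1572 CPM and from 4595 to 5641 CPM. The mTEC marker Ccl21a was at 0 in 10 of the 12 libraries.

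Promoter sequence is shown for the member that fell most, for Srebf1 and for Fasn, because the latter pair hold near-identical stretches of the LXR type. The windows are the 250 bases before a RefSeq transcription start in GRCm38.p6, a build other than the mm9 that the submitters' processing notes name; capitals mark a stretch with 1 mismatch to a searched motif. The Srebf1 window spans chr11:60210472-60210721 on the minus strand, before the third of its RefSeq starts, the Fasn window chr11:120824548-120824797 on the minus strand, and the Mid1ip1 window chrX:10717115-10717364 on the plus strand.
Srebf1: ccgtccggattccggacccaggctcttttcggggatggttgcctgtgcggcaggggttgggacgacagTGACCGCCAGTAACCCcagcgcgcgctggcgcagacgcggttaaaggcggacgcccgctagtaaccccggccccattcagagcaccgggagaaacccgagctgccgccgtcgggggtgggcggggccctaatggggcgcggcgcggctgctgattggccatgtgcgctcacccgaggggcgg
Fasn: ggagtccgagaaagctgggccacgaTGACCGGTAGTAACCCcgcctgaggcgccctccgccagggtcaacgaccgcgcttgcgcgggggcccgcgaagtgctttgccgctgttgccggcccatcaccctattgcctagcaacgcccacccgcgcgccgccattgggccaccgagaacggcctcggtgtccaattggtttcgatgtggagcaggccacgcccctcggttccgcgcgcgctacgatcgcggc
Mid1ip1: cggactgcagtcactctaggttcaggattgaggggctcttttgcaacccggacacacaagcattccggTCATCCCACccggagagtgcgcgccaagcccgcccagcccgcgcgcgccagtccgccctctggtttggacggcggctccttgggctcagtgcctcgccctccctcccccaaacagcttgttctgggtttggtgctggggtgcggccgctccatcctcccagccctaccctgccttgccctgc

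The LXR motif was searched as NGGTCA repeated in the same direction with 4 bases between, on both strands of 300-base windows that also hold the 50 bases after the start. With no mismatch it was in none of the members' windows and in 0.0761% of 32851 windows. With 1 mismatch it was in 2 of the members' 14 windows, 1 each of Srebf1 and Fasn, and in 1.89% of all windows. Both lie on the strand opposite to the gene, read there as GGGTTACTGGCGGTCA in Srebf1 and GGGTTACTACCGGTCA in Fasn. Read along the gene's own strand, the stretches begin at positions -182 and -225 from the start. Counted from 1 at the motif's first base, each departs from the motif by C5T, and they differ from each other by G9A and G10C, both in the spacer. LXR response elements of this kind have been described in both genes, as background. The SREBP motif TCACNCCAC was in 1 Mlxipl window with no mismatch (1.24% of all windows) and, with 1 mismatch, in 4 of the 14, those of Mlxipl, Acly, Acacb and Mid1ip1 (24.2%). CACGTG was in 1 of the 14, an Mlxipl window (7.15% of all windows), CCAAT in 9 of the 14 (37.4%) and GGGCGG in 7 of the 14 (35.7%; overlaps between motifs were allowed). A match is a description of these letters, not of binding.

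Cre cTEC had lower counts of Srebf1, Mid1ip1 and Acss2 than control cTEC, and no member passed as higher. The Acss2 call was lost in 8 of 14 alternatives. With edgeR's quasi-likelihood test, adjusted over all genes tested with a threshold of 0.05, 3 of the 10 members fell (3.38% of all genes fell) and 0 rose (5.62% of all genes rose). No member was higher at an unadjusted p under 0.05 either, and DESeq2 and limma voom also called 0 higher, with 2 and 4 lower. Over all genes in either direction, edgeR called 1555, DESeq2 1741 and limma voom 2193. The 3 control and 3 Cre libraries did not overlap for 4 members, against 20.2% of all genes. The median log2 fold change was -0.10 over the members and -0.02 over all genes.

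In mTEC the members that passed were Mid1ip1, Me1 and Acacb, the last lost in 7 of 14 alternatives. Of the 10, 3 fell (1.49% of all genes fell) and 0 rose (0.585% rose). DESeq2 and limma voom called 4 and 5 members lower and 0 higher. Over all genes in either direction, edgeR called 358, DESeq2 599 and limma voom 1672, so the edgeR shares are no baseline for those counts. At an unadjusted p under 0.05, 6 members were lower and 0 higher, and the share of all genes there was not computed. The groups did not overlap for 7 members, against 24.4% of all genes. The fold change was below 0 for 9 of 10 members, with a median of -0.41 against 0.01 over all genes. Of all genes called in mTEC, 28.2% were higher, and 17.2% with DESeq2.

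**Figure D1:**
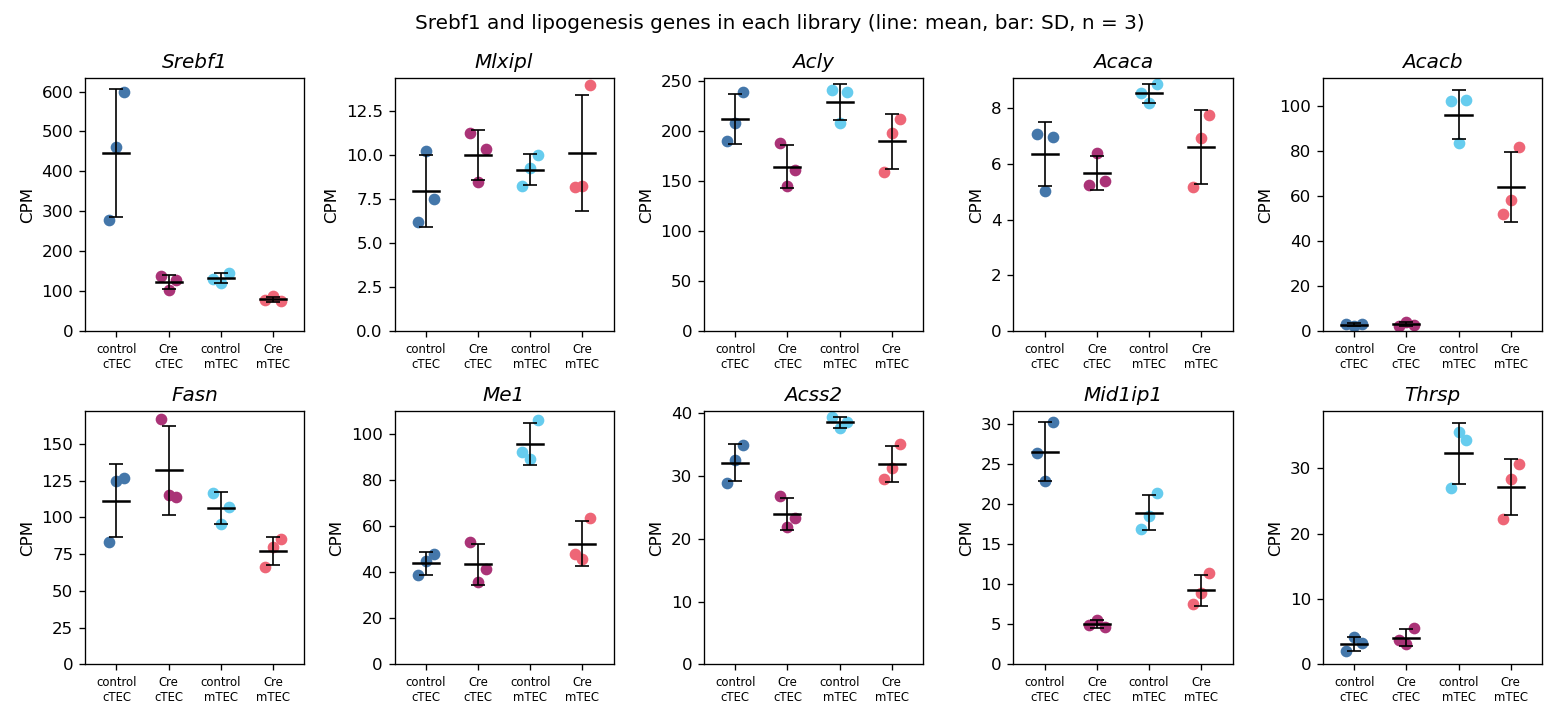
CPM of the 10 genes in each library, 1 panel per gene with its own axis from 0; points are libraries, the line is the mean and the bar the SD of 3 libraries. Srebf1 stands highest in control cTEC (278 to 598 CPM), and Acacb and Thrsp are below 6 CPM in every cTEC library and above 22 CPM in every mTEC library.

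Srebf1, the regulator of the group, was at 278, 460 and 598 CPM in libraries 7 to 9, the cTEC controls, and at 138, 103 and 128 CPM in libraries 10 to 12, their Cre counterparts. Every Cre library was below every control library, and the control libraries were the more spread (SD 160 around a mean of 446 CPM, against 18.0 around 123 CPM). The difference was 3.61-fold (log2 fold change -1.85, SE 0.19, adjusted p = 7.5e-06, edgeR). The mTEC controls stood at 132, 120 and 146 CPM and the Cre mTEC libraries at 77.5, 88.2 and 75.8 CPM. Those groups did not overlap, but the log2 fold change of -0.72 (SE 0.19) had an adjusted p of 0.0600 with edgeR and was not called. It was called in 5 of 14 alternatives, DESeq2 and limma voom among them, with adjusted p from 6.2e-05 to 0.201 over the 14. The decrease was larger in cTEC than in mTEC by 1.13 on the log2 scale (SE 0.27, adjusted p = 0.0208, edgeR test of the difference). Without library 1, 2, 5 or 9, or with a robust fit, that difference did not pass, with adjusted p up to 0.0693. Counts per gene cannot separate the Srebf1a and Srebf1c transcripts, and 1.93% of its exon bases are shared with Rai1 on the other strand.

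Mlxipl, the glucose-responsive regulator also called ChREBP, was low everywhere. It was at 6.20, 10.2 and 7.54 CPM in the cTEC controls and at 11.3, 8.49 and 10.3 CPM in the Cre cTEC libraries, overlapping groups with a log2 fold change of 0.34 (95% interval -0.16 to 0.84). The mTEC controls stood at 8.25, 9.27 and 10.0 CPM and the Cre mTEC libraries at 8.18, 8.25 and 14.0 CPM, where library 6 stood above the other libraries (0.15, interval -0.32 to 0.63). Without library 6 that value was -0.16, and it passed in neither case.

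Among the genes for substrate supply, Acly, the ATP citrate lyase, was the most abundant. It was at 190, 207 and 238 CPM in the cTEC controls and at 188, 145 and 161 CPM in the Cre cTEC libraries. The groups were separate by less than 2 CPM, and the log2 fold change of -0.36 (SE 0.13) had an adjusted p of 0.0976. It passed with limma voom, with a filter of 5 CPM in 3 libraries and without library 10. The mTEC controls stood at 240, 208 and 238 CPM and the Cre mTEC libraries at 159, 198 and 212 CPM, which overlap (-0.27, SE 0.13, adjusted p = 0.344).

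Acss2, the cytosolic acetyl-CoA synthetase, was at 28.9, 32.5 and 34.8 CPM in the cTEC controls and at 26.8, 21.8 and 23.3 CPM in the Cre cTEC libraries. The groups did not overlap and the decrease passed narrowly (log2 fold change -0.41, SE 0.12, adjusted p = 0.0421). It did not pass in 8 of 14 alternatives: DESeq2, no filter, only the cTEC libraries, length and GC offsets, and without library 8, 9, 11 or 12, with adjusted p up to 0.255. The mTEC controls stood at 39.3, 37.6 and 38.6 CPM and the Cre mTEC libraries at 29.5, 31.2 and 35.1 CPM, separate groups whose difference did not pass (-0.27, SE 0.12, adjusted p = 0.288). Its exons share bases with Gss (3.89%), Ggt7 (1.94%) and the antisense Acss2os (3.30%), and the library kit does not mark strand.

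Me1, the cytosolic malic enzyme that yields NADPH, fell in mTEC. Its level was 92.2, 88.9 and 106 CPM in the mTEC controls and 47.7, 45.7 and 63.7 CPM in the Cre mTEC libraries. All 3 Cre libraries were below all 3 controls, a 1.82-fold difference (log2 fold change -0.87, SE 0.15, adjusted p = 0.00467, edgeR). The cTEC controls stood at 38.6, 44.7 and 48.1 CPM and the Cre cTEC libraries at 53.0, 35.7 and 41.5 CPM, overlapping groups with a log2 fold change of -0.0031 (interval -0.32 to 0.32). The effects differed between the cell types by 0.86 on the log2 scale (cTEC minus mTEC, SE 0.21, adjusted p = 0.0245). That difference did not pass without library 1, 3, 5, 7 or 10, with adjusted p up to 0.0779.

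Acaca and Acacb encode the acetyl-CoA carboxylases of the cytosol and of the mitochondrial surface; malonyl-CoA from the latter is best known for restraining fatty acid oxidation. Acacb was at 102, 83.8 and 102.5 CPM in the mTEC controls and at 52.3, 58.5 and 81.9 CPM in the Cre mTEC libraries. The highest Cre library, 6, was just below the lowest control, 2 (log2 fold change -0.58, SE 0.15, adjusted p = 0.0471). The call was lost in 7 of 14 alternatives, with a filter of 5 CPM, with length and GC offsets and without any one of libraries 1 to 5, with adjusted p up to 0.258. The cTEC controls stood at 3.27, 2.51 and 3.41 CPM and the Cre cTEC libraries at 2.45, 4.25 and 2.77 CPM, levels of a few CPM, and the interval of the log2 fold change ran from -0.68 to 0.63. Acaca lay between 5.03 and 7.06 CPM in control cTEC and between 5.24 and 6.37 CPM in Cre cTEC, and between 8.18 and 8.86 CPM in control mTEC and 5.15 and 7.73 CPM in Cre mTEC. It passed in neither cell type (log2 fold changes -0.18, SE 0.23, and -0.36, SE 0.21), although the mTEC groups did not overlap.

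Mid1ip1 and Thrsp encode the paralogous small proteins MIG12 and Spot 14, of which MIG12 promotes the polymerisation of carboxylase. Mid1ip1 was at 26.3, 22.9 and 30.3 CPM in the cTEC controls and at 4.91, 5.60 and 4.66 CPM in the Cre cTEC libraries. All 3 Cre libraries were far below the lowest control, and the difference was 5.28-fold (log2 fold change -2.40, SE 0.19, adjusted p = 2.7e-07, edgeR). The mTEC controls stood at 16.9, 18.5 and 21.4 CPM and the Cre mTEC libraries at 7.57, 8.85 and 11.4 CPM. That was a 2.03-fold decrease, with no overlap (log2 fold change -1.02, SE 0.17, adjusted p = 0.00499). Mid1ip1 was called in both cell types in all 14 alternatives of each comparison, and the decrease was larger in cTEC by 1.38 on the log2 scale (SE 0.26, adjusted p = 0.00555). An antisense gene, Gm14493, overlaps 25.5% of its exon bases, and its reads could not be told apart from those of Mid1ip1.

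Thrsp was at 2.07, 4.19 and 3.27 CPM in the cTEC controls and at 3.68, 3.09 and 5.54 CPM in the Cre cTEC libraries, and at 26.9, 35.6 and 34.3 CPM in control mTEC and 22.3, 28.3 and 30.6 CPM in Cre mTEC. The groups overlapped in both cell types. The log2 fold changes were 0.37 in cTEC (interval -0.24 to 0.99) and -0.24 in mTEC (interval -0.62 to 0.13).

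Fasn, the fatty acid synthase, passed the test in neither cell type. It was at 83.0, 125 and 127 CPM in the cTEC controls and at 167, 115 and 114 CPM in the Cre cTEC libraries, overlapping groups with a log2 fold change of 0.25 (interval -0.09 to 0.59, adjusted p = 0.474). The mTEC controls stood at 117, 95.1 and 107 CPM and the Cre mTEC libraries at 66.5, 79.9 and 85.1 CPM. Those groups were separate, and their difference (-0.46, SE 0.16, adjusted p = 0.166) passed only with limma voom, with no filter and with only the mTEC libraries. The difference between the cell types, 0.71 (SE 0.23), had an adjusted p of 0.103 and passed with DESeq2, with no filter and without library 11.

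The test of the difference was thus past the threshold for 1 member with the higher log2 fold change in cTEC, Me1 (2.92% of all genes in that direction). It was also past it for 2 with the lower log2 fold change there, Srebf1 and Mid1ip1 (1.08% of all genes). Of all genes called for the difference, 73.0% had the higher log2 fold change in cTEC, and 85.2% with DESeq2. Both genotype comparisons use separate libraries, and the 7 other members, Acss2 and Acacb among them, are not shown to respond differently in the cell types.

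**Figure D2:**
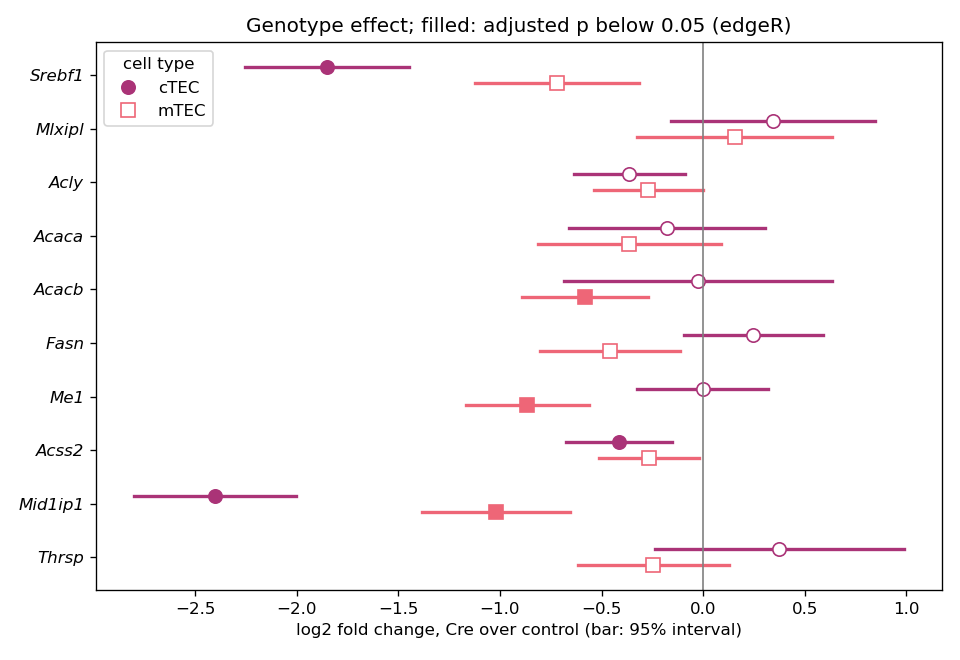
Log2 fold change of Cre over control for each gene in cTEC (circles) and mTEC (squares), with 95% intervals from the edgeR fit; filled points have an adjusted p below 0.05. Srebf1 (-1.85) and Mid1ip1 (-2.40) lie farthest left in cTEC, and Me1 lies near 0 in cTEC and at -0.87 in mTEC.

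Summed levels of some cell type marker sets also did not overlap between the genotypes. Of 12 sets, 3 had lower sums in all Cre libraries than in any control library in cTEC and 6 in mTEC, and 0 had higher sums in this way. Of all single genes, 20.2% in cTEC and 24.4% in mTEC did not overlap, in either direction. No test was run on the sums. With edgeR, 5.62% of all genes were called higher and 3.38% lower in cTEC, and 0.585% and 1.49% in mTEC. The 7 cTEC markers overlapped between the genotypes in cTEC, at 5036 to 6406 CPM in control and 5710 to 14368 CPM in Cre, although 6 of the 7 rose there; in mTEC they summed to between 891 and 924 CPM and between 641 and 856 CPM, with 1 of 7 called lower. The 7 mTEC markers summed to between 1434 and 1572 CPM in control cTEC and between 866 and 1073 CPM in Cre cTEC, mostly Krt5 (means 1438 and 832 CPM), which fell, while Fezf2, Cd40 and Tnfrsf11a rose; in mTEC the ranges were 5381 to 5641 CPM and 4595 to 5223 CPM, with 0 of 6 tested markers called.

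The 6 enterocyte and hepatocyte-like markers summed to between 46.0 and 55.8 CPM in control cTEC and between 9.15 and 23.3 CPM in Cre cTEC, where 2 fell. In mTEC they summed to between 562 and 675 CPM and between 277 and 488 CPM, mostly Reg3g (means 456 and 244 CPM), and 0 of 6 passed. The 6 corneocyte markers summed to between 220 and 271 CPM in control mTEC and between 89.8 and 123 CPM in Cre mTEC, where 4 of the 6 fell. The other sets that did not overlap were the 8 macrophage and dendritic cell markers in cTEC (39.0 to 55.7 CPM in control and 34.4 to 37.4 CPM in Cre, 0 called), and in mTEC the 6 fibroblast markers (127 to 149 and 82.2 to 113 CPM, with Col1a1 called lower) and the 5 epithelial markers (6690 to 6903 and 5762 to 6566 CPM, with Foxn1 called lower). The 9 adipocyte markers overlapped in both cell types, with 0 of 6 tested markers called; they ran from 130 to 183 CPM in control mTEC and from 102 to 145 CPM in Cre mTEC, mostly Fabp4 (means 138 and 97.1 CPM), and the defining Adipoq and Plin1 had means of 2.64 and 0.386 CPM in control mTEC. The part of these cells in the members' changes was not tested, and in RNA of sorted pools fewer cells of a type cannot be told from less RNA per cell.

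Between the cell types, the members did not share a direction. In the controls, Acacb, Thrsp and Me1 were higher in mTEC and Srebf1 and Mid1ip1 lower, so 3 of 10 rose (29.3% of all genes) and 2 fell (30% of all genes), shares near those of all genes. Acacb was 31.0-fold higher in control mTEC (log2 fold change 4.96, SE 0.21, adjusted p = 5.2e-13, edgeR), Thrsp 10.0-fold (3.33, SE 0.23, adjusted p = 4.1e-10) and Me1 2.18-fold (1.12, SE 0.15, adjusted p = 2.6e-06). Srebf1 was 3.37-fold lower (-1.75, SE 0.19, adjusted p = 2.2e-07). Mid1ip1 was 1.41-fold lower (-0.49, SE 0.16, adjusted p = 0.0128), a call lost in 4 alternatives, DESeq2, no filter, library 1 left out and library 9 left out (highest adjusted p 0.154). The values of Acly and Fasn were 0.11 (interval -0.16 to 0.38) and -0.07 (interval -0.41 to 0.27), and with length and GC offsets Fasn was called lower at -0.51.

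In the Cre libraries the order changed for Mid1ip1, which was 1.85-fold higher in mTEC (log2 fold change 0.89, SE 0.20, adjusted p = 0.00127), and the distance shrank for Srebf1 (-0.62, SE 0.19, adjusted p = 0.0123). Fasn was 1.71-fold lower in Cre mTEC (-0.78, SE 0.17, adjusted p = 0.000625), and Acss2 was higher (0.41, SE 0.12, adjusted p = 0.00987; not past the threshold with length and GC offsets or without library 6). Acacb and Thrsp stayed far apart (4.40, SE 0.21, and 2.71, SE 0.22). Me1 was not called with Cre (0.26, SE 0.15, edgeR adjusted p = 0.162), although it passed with a filter of 5 CPM in 3 libraries and without library 10. Thus 4 members were higher (25.1% of all genes) and 2 lower (24.5%). Length and GC offsets moved the median of all genes to -0.19 in both cell type comparisons, from -0.05 in the controls and -0.02 with Cre, and the share of higher calls with Cre from 50.6% to 37.4%. Both comparisons of cell type share their libraries with the genotype comparisons and are not independent of them.

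Levels can be compared between genes only per length. As CPM per kb of merged exons, control cTEC had most Srebf1 (79.1 ± 28.5, SD, n = 3) and then Acly (40.1 ± 4.66), whose libraries lay below all of those of Srebf1. Mid1ip1 (12.5 ± 1.73), Me1 (11.4 ± 1.25) and Fasn (10.2 ± 2.25) followed and did not differ beyond their spread. Acss2 (3.16 ± 0.293) came next, then Thrsp (1.45 ± 0.486) and Mlxipl (1.44 ± 0.370), and both carboxylases were lowest, Acaca at 0.372 ± 0.0673 and Acacb at 0.318 ± 0.0503. In control mTEC the order was Acly (43.4 ± 3.42), Me1 (24.9 ± 2.38), Srebf1 (23.6 ± 2.23), Thrsp (14.7 ± 2.14), Acacb (9.99 ± 1.12), Fasn (9.71 ± 0.978), Mid1ip1 (8.90 ± 1.05), Acss2 (3.79 ± 0.0837), Mlxipl (1.66 ± 0.162) and Acaca (0.499 ± 0.0197). Me1 and Srebf1 were within their spread there, as were Acacb, Fasn and Mid1ip1.

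The balance of the carboxylase genes differed by cell type. Per kb, Acacb over Acaca was 0.856 in control cTEC and 0.987 in Cre cTEC, and 20.0 in control mTEC and 17.3 in Cre mTEC. These are ratios of group means without a spread, so the genotypes are not shown to differ in them. In cTEC both genes rest on 15 to 49 counts per library. With the longest transcript in place of merged exons the ratios were 0.523, 0.603, 12.2 and 10.5. The order of levels also depends on this choice, most of all for Acss2, whose merged exons are far longer than its longest transcript (10163 against 3609 bases). By longest transcript Acss2 was at 8.89 CPM per kb in control cTEC, still next after Fasn (11.1), and Me1 (13.3) came before Mid1ip1 (13.1). In control mTEC Acss2 was at 10.7 CPM per kb, above Fasn (10.6) and Mid1ip1 (9.37) rather than below them, and Srebf1 (30.9) came before Me1 (29.1).

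**Figure D3:**
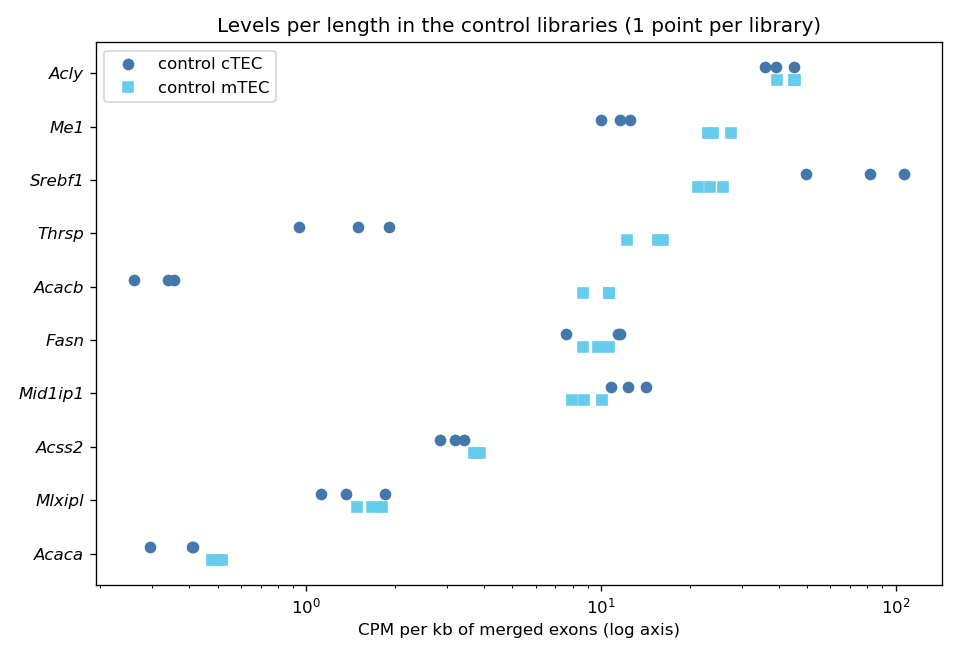
CPM per kb of merged exons in the control libraries on a log axis, 1 point per library, circles for cTEC and squares for mTEC, genes ordered by their mean in control mTEC. Acacb moves from 0.318 in cTEC to 9.99 in mTEC, while Acly, Fasn and Mlxipl overlap between the cell types.

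Within groups the members often kept a common order of libraries. In Cre mTEC, library 6 was highest for 9 of 10 members and lowest for the remaining one, Srebf1, and library 4 lowest for 8. In control cTEC, library 9 was highest for 7 members and library 7 lowest for 7. These values share depth and scaling within a library. The share of all genes with the same order was not computed, so the order is not shown to be particular to the members.

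Among the genes whose counts followed Srebf1 most closely over the 12 libraries, after subtracting the mean of each cell type, were Fdft1 (Pearson r = 0.989), Dhcr7 (0.958), Elovl5 (0.948) and Srebf2 (0.947), out of 12333 genes with a mean of at least 5 CPM. Fdft1 and Dhcr7 encode enzymes of cholesterol synthesis, Elovl5 a fatty acid elongase, and Srebf2 the paralogue best known for regulating cholesterol genes. Fdft1 had means of 46.7 CPM in control and 11.0 CPM in Cre cTEC, and 25.8 and 16.3 CPM in the mTEC groups. Among the members, r with Srebf1 was 0.925 for Mid1ip1, 0.919 for Acss2 and 0.829 for Acly, and 0.129 for Fasn, 0.413 for Me1, 0.353 for Acaca, 0.156 for Acacb, -0.066 for Thrsp and -0.316 for Mlxipl. These values describe libraries that share a genotype split and scaling.

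**Figure D4:**
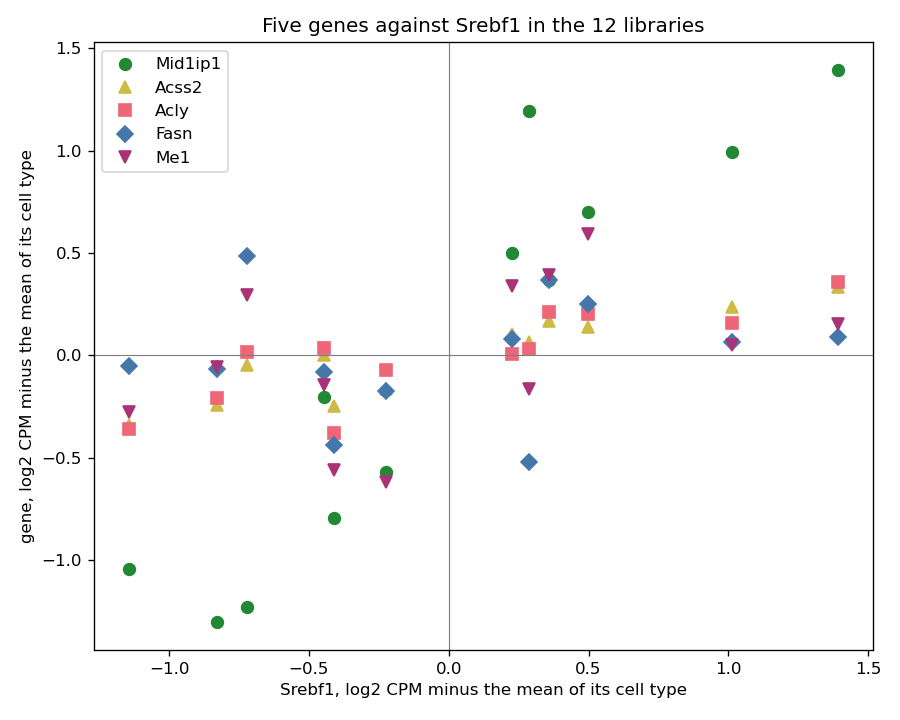
Log2 CPM of 5 genes against that of Srebf1 in the 12 libraries, each minus the mean of its cell type. Mid1ip1, Acss2 and Acly rise along Srebf1, and Fasn and Me1 scatter (r = 0.129 and 0.413).

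Of the genes that handle the SREBP precursor, 8 in all, 1 rose and 2 fell in Cre cTEC (5.62% and 3.38% of all genes). Insig1, which retains the precursor in the endoplasmic reticulum, was at 20.3 ± 8.97 CPM in control and 6.39 ± 1.03 CPM in Cre cTEC (SD, n = 3), and fell by 1.66 on the log2 scale (SE 0.27, adjusted p = 0.00054). Srebf2 fell too (-0.61, SE 0.12, adjusted p = 0.0028), and Scap, the escort protein, rose (0.45, SE 0.11, adjusted p = 0.0144; not called with length and GC offsets or without library 7, 9 or 10). In mTEC 0 of the 8 passed with edgeR, 2 were lower at an unadjusted p under 0.05, and DESeq2 and limma voom called 1 lower each.

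Of 7 genes around Mlxipl, 1 fell in Cre cTEC: Txnip, a glucose-responsive target, at 904 ± 222 CPM in control and 583 ± 17.7 CPM in Cre (-0.63 on the log2 scale, SE 0.14, adjusted p = 0.00667; 0.0603 without library 7). In mTEC 0 of 7 passed; 1 was higher at an unadjusted p under 0.05, and limma voom called 1 higher and DESeq2 0. Of 13 genes for citrate, acetyl-CoA and NADPH supply, 1 fell in cTEC, Aacs, the acetoacetyl-CoA synthetase (-0.66, SE 0.16, adjusted p = 0.00964; 0.0838 without library 9), and 0 passed in mTEC, where 1 was higher and 2 lower at an unadjusted p under 0.05 (DESeq2 called 1 and 1, limma voom 1 and 2).

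The 9 genes for AMPK subunits, the kinases upstream of AMPK and malonyl-CoA decarboxylase (Mlycd) gave 0 calls in either cell type with edgeR and DESeq2; limma voom called 1 lower in mTEC, and at an unadjusted p under 0.05 edgeR had 0 in cTEC and 1 lower in mTEC, Camkk2 (-0.74, SE 0.24, adjusted p = 0.130). The 6 genes of mitochondrial fatty acid synthesis gave 0 calls with edgeR, DESeq2 and limma voom in both cell types, with 1 at an unadjusted edgeR p under 0.05, Mcat in mTEC (0.29, SE 0.14, adjusted p = 0.330).

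Of 14 genes for the steps after palmitate (desaturases, elongases, activation and esterification), 6 fell and 0 rose in Cre cTEC (medians -0.27 over the list and -0.02 over all genes). In Cre mTEC, 5 fell and 0 rose (medians -0.14 and 0.01). Over all genes, 3.38% fell and 5.62% rose in cTEC, and 1.49% fell and 0.585% rose in mTEC. None of the 14 was higher at an unadjusted p under 0.05 in either cell type, nor by DESeq2 or limma voom. Scd2, a stearoyl-CoA desaturase, was at 526 ± 116 CPM in control and 31.2 ± 1.48 CPM in Cre cTEC, and at 569 ± 33.5 and 68.8 ± 11.1 CPM in mTEC. Its paralogue Scd1 had log2 fold changes of -1.61 (SE 0.22) in cTEC and -1.69 (SE 0.15) in mTEC. The acyl-CoA synthetase Acsl3 and the desaturase Fads2 fell in both (-1.56 and -1.77 in cTEC, -0.59 and -0.87 in mTEC), their mTEC calls being lost without library 1, 3 or 5, and for Fads2 also without 2 or 4, with adjusted p up to 0.133. Abca1 and Abcg1, which encode sterol exporters and are known LXR targets, fell, with log2 fold changes of -2.07 and -4.05 in cTEC and -1.88 and -2.55 in mTEC; with Nr1h2 they made 3 lower and, with Rxrg, 1 higher of 7 receptor and target genes in cTEC, and 3 lower in mTEC. Rxrg (1.15, SE 0.35, adjusted p = 0.0433) was lost in 6 of 12 alternatives.

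**Figure D5:**
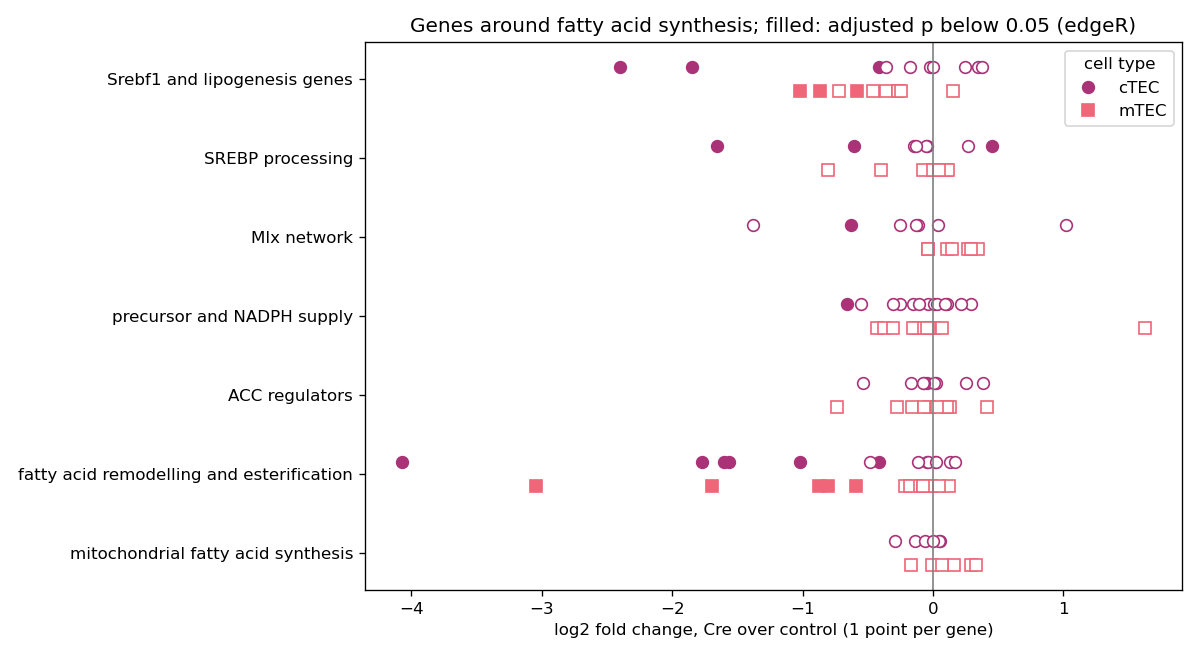
Log2 fold change of Cre over control for the members and 6 lists of related genes, 1 point per gene, circles for cTEC and squares for mTEC; filled points have an edgeR adjusted p below 0.05. The list of remodelling and esterification genes has 6 filled points in cTEC and 5 in mTEC, all below 0.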

How the data were processed

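RNA of sorted thymic epithelial cells was counted in 12 libraries, which the labels put in 4 groups of 3 by cell type and genotype. The authors deposited raw read counts per gene symbol; the submitters' processing notes name the tools HTSeq, STAR and edgeR and the build mm9, and the sources used here give no versions, annotation or strand setting. Libraries were made with a low-input SMARTer kit, per the labels' protocols, which does not mark strand. The labels do not say whether libraries came from separate animals, so p-values measure only the spread between these libraries. No number is shared between groups.

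From the counts, CPM was computed as the count over the library total scaled by TMM. Differences were tested with the quasi-likelihood method of edgeR 4.0.16 in R 4.3.3, two-sided, on all 12 libraries in 1 fit with 8 residual degrees of freedom, after filterByExpr by group, with Benjamini-Hochberg adjustment over 17268 genes and a threshold of 0.05, in 5 comparisons. Intervals are 95%. Levels per length used GENCODE M21 exons, and GC and length offsets used splines with 4 degrees of freedom (98.01% of tested genes annotated). Promoters came from RefSeq GRCm38.p6, where all 10 members matched. Correlations used log2 CPM with a prior count of 2.

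Alternatives were a robust fit, voom of limma 3.58.1 with quality weights, DESeq2 1.42.0, the size factors of DESeq2 within edgeR, no filter, 5 CPM in 3 libraries, only the libraries compared, length and GC offsets, and each library left out. The same alternatives were applied to the pathway lists after seeing the data. The fit was run on simulated counts, with spreads taken from these data and large changes added to genes above 5 CPM. That run does not bear on smaller changes or lower counts. The members and lists were chosen with earlier results of these data known. Named were all members, up to 4 genes of each list by smallest p in either genotype comparison, and the 5 genes most like Srebf1, of which 1 is not reported here; Elovl5 stands among the latter, and Fads1, Foxn1 and the single cell type markers were named after their values were seen.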

Additional observations from a re-analysis of the deposited data

Results flagged for a closer look

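The effect of genotype differed between the cell types by edgeR's test of the difference for 9 genes described here, each given as the cTEC effect minus the mTEC effect on the log2 scale. Mid1ip1 (-1.38) fell in both cell types and further in cTEC, a difference that passed in all 19 alternatives. Srebf1 (-1.13) fell in cTEC, and its mTEC decrease was not called. Me1 (0.86) fell in mTEC and overlapped between the genotypes in cTEC. The differences of Srebf1 and Me1 did not pass in 5 of 19 alternatives each, with adjusted p up to 0.0693 and 0.0779. Among the related genes, Scd2 (-1.03), Acsl3 (-0.97) and the sterol exporter gene Abcg1 (-1.49) fell in both cell types and further in cTEC. Fads1, a desaturase, had a difference of -1.14: it was at 31.3 and 15.6 CPM in control and Cre cTEC and at 31.0 and 33.8 CPM in the mTEC groups. Txnip had a difference of -0.98, with effects of -0.63 in cTEC and 0.35 in mTEC, the latter not past the threshold. Me3, the mitochondrial malic enzyme, had a difference of -2.18 with effects of -0.56 and 1.62, neither past the threshold, and the difference did not pass in 7 of 19 alternatives (adjusted p up to 0.117).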

How the results depend on the processing

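Of the 50 member results (10 genes in 5 comparisons), 36 kept their side of the threshold in every alternative, 6 lost a call in at least 1, 8 gained one and 8 changed sign, none of the last while past the threshold.

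Genotype in mTEC called 358 genes, and 599 with DESeq2, 1672 with limma voom, 1049 with no filter and 1026 with only the libraries compared; members lower rose from 3 to 5 with each of the last 3. The difference of effects called 692 genes, and 1100 with DESeq2, 1398 with limma voom, 1140 with no filter and 394 with length and GC offsets; members higher were 2 with DESeq2 and with no filter, and members lower 1 with a robust fit. In control mTEC against cTEC, members lower were 1 with DESeq2 and with no filter.

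With a library left out, genotype in cTEC called from 1018 to 2294 genes (highest without library 11, lowest without 9), genotype in mTEC from 78 to 671 (without 1 and 6) and the difference from 371 to 1644 (without 1 and 11). Members in the difference were 0 to 2 higher and 1 to 2 lower, and members lower in the control cell type comparison 1 to 2.

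Signs changed near 0: in cTEC, Me1 was 0.0039 with DESeq2 size factors, 0.025 with DESeq2, 0.050 with no filter, 0.13 with length and GC offsets and -0.18 to 0.10 with a library left out, and Acacb 0.015 with DESeq2, 0.028 with no filter, 0.030 with only the libraries compared and -0.26 to 0.15 with a library left out. Left-out libraries gave -0.16 to 0.28 for Mlxipl in mTEC and -0.20 to 0.015 for Acly in the difference. In control mTEC against cTEC, Fasn was 0.017 with DESeq2, 0.095 with no filter and -0.19 to 0.060 with a library left out, and length and GC offsets gave -0.037 for Mlxipl and -0.084 for Acly. With Cre, Mlxipl was -0.12 with limma voom, -0.19 with those offsets and -0.31 to 0.15 with a library left out. The causes were not tested.

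The remodelling list kept 5 to 6 lower in cTEC and 3 to 5 in mTEC over the alternatives, which were chosen for it after seeing the data. At 3 libraries a group and a few CPM, changes in Acacb and Thrsp in cTEC, Mlxipl and Acaca are bounded only by their intervals. No paired analysis was possible because the labels do not say whether cTEC and mTEC libraries came from the same mice. The comparisons between cell types and the test of the difference treated all libraries as independent.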
